A study of Mus musculus with 3 samples.

Results

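Signals of 10 genes of the blood stem cell program were read in 6 libraries of early blood progenitors, 3 labelled Mef2c-deficient and 3 labelled control. The genes are Procr, Hlf, Mecom, Tek, Slamf1, Ly6a, Mllt3, Ndn, Cd34 and Cd48. They were found by gene name among the non-control probes of a mouse 2-colour array, where Mecom stands under its older name Evi1. They make up 10 of 27671 gene names and 18 of 41174 probes. Of the 18 probes, 17 were bright enough to be tested, and each of the 10 genes had at least 1 such probe.

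Both groups were bone marrow cells gated as lineage-negative, c-kit positive and Sca-1 positive, which the labels call multipotent progenitors (MPPs). Sca-1 is the product of Ly6a, so the sort itself selected on 1 of the 10 genes, in both groups alike. Mutant mice carried Mx1-Cre and floxed Mef2c alleles (Mx1-Cre Mef2c f/f), and control mice carried the floxed alleles without Cre (Mef2c f/f). Mx1-Cre is a recombinase under an interferon-responsive promoter that is not limited to blood cells. Both groups received poly(I:C), an RNA analog that induces interferon, as 4 daily injections of 250 µg, and marrow was taken 2 days after the last. The controls thus share the floxed alleles and the interferon stimulus but not the Cre, so an effect of Cre cannot be told apart from the loss of Mef2c. Per sample 15000 cells were sorted, their mRNA was amplified by PCR of its cDNA, and 250 ng of cDNA was labelled. The age of the mice, and whether a sample came from 1 mouse or several, are not stated in the sources used here, so each p-value covers the spread between these libraries alone, which may be technical.

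Each of 3 arrays held 1 mutant library in Cy3 and 1 control library in Cy5, all on 1 slide, with no dye swap in the labels. Dye and genotype therefore cannot be told apart. The authors' deposited log2 ratios of array 2 run opposite, in sign against the scanner's colours, to those of arrays 1 and 3. Which way array 2 truly runs is not settled, so signed values below follow the labels, and the means of the 10 genes' tested probes are also given with array 2 turned, that is, with the sign of its ratios changed. For other genes the turned mean is given where it differs by over 1.5 times or in sign. A ratio is log2 of mutant over control signal, and a level is the normalized log2 signal of 1 library at 1 probe. Levels are set side by side only between libraries at the same probe. Because the cells were profiled in bulk, fewer cells of a type and less RNA per cell cannot be told apart.

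The share of probes well above background ran from 73.4% to 80.3% over the 6 channels, with 0 saturated spots. Over 22198 genes the ratios of arrays 1 and 2 correlated at r = 0.31, those of arrays 1 and 3 at 0.13 and those of arrays 2 and 3 at 0.04, which is a description across genes that are not independent. Control library 1 stood apart from the other controls in 2 genes. The immediate early gene Egr1 had a level of 15.49 there against 11.70 and 9.37 in control libraries 2 and 3, and the neutrophil granule gene Ngp had 14.52 against 10.30 and 9.83. Means without array 1 are therefore given for the tested probes of the 10 genes, and for other genes and lists where they differ by over 1.5 times. The deleted gene served as a check of the labels. The brightest Mef2c probe (chr13:80738124-80738183) read 12.99, 13.09 and 12.82 in mutant libraries 1, 2 and 3 and 12.91, 12.99 and 13.78 in the controls, so that only array 3 had a clearly lower mutant level. Its mean ratio was -0.26 ± 0.61 (SD, n = 3; limma adjusted p = 0.741), which was -0.43 without array 1 and -0.33 with array 2 turned. A second, dim probe, well above background in 2 mutant libraries and 1 control, had ratios of 1.07, 0.22 and 0.28, with a mean of 0.52 that was 0.25 without array 1. The sources used here do not say whether either Mef2c probe lies in the deleted part, so these levels do not settle how much of the gene was lost.

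Long-lived blood stem cells fall within the gate that was sorted here and are a minority of it. They are told from the multipotent progenitors around them by surface proteins. Procr (EPCR), Tek (Tie2) and Slamf1 (CD150) mark stem cells, whereas Cd48 and, in adult mice, Cd34 appear on the progenitors that leave the stem cell state. Hlf, Mecom and Mllt3 encode nuclear regulators that stem cells need to persist, and Ndn is a growth suppressor linked to quiescence.

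No gene passed limma's adjusted p of 0.05, so none of the 10 was called, with 0 of 22215 genes (0%) called over the whole table. At an unadjusted p under 0.05, Slamf1 and Ly6a were higher and Procr and Hlf lower in the mutant libraries, which is 4 of 10 members beside 10.1% of all genes. In each direction this is 2 members, beside 4.81% of all genes higher and 5.32% lower. The split over all genes was 1069 higher and 1181 lower, and with median centring of each array in place of loess it was 551 and 2321, with 1 member higher (Ly6a) and 3 lower (Hlf, Mllt3 and Procr). Ratios ran the same way on all 3 arrays for 7 of the 10 genes, beside 35.5% of all genes. These were Mecom, Tek, Slamf1 and Ly6a on the high side (15.2% of all genes) and Procr, Hlf and Mllt3 on the low side (20.3%). The 3 mutant and 3 control levels did not overlap for 6 of them, beside 19% of all genes. Of these, Tek, Slamf1 and Ly6a lay above (7.21% of all genes) and Procr, Hlf and Mllt3 below (11.8%). With array 2 turned, none of the 10 ran the same way on all arrays (20.1% of all genes did) and none had a p under 0.05 (2.9% of all genes did). The 10 genes split evenly, with 5 mean ratios above and 5 below 0, where 54.6% of all genes lay below. The mean was at least 1 in size for 3 of them, Procr, Hlf and Slamf1, beside 2.76% of all genes. Because the 10 genes were chosen with earlier results of these data known, these counts do not test them against all genes. The median of the 10 was 0.03, beside -0.04 over all genes tested, and it was 0.05 without array 1 and -0.03 with array 2 turned.

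**Figure D1:**
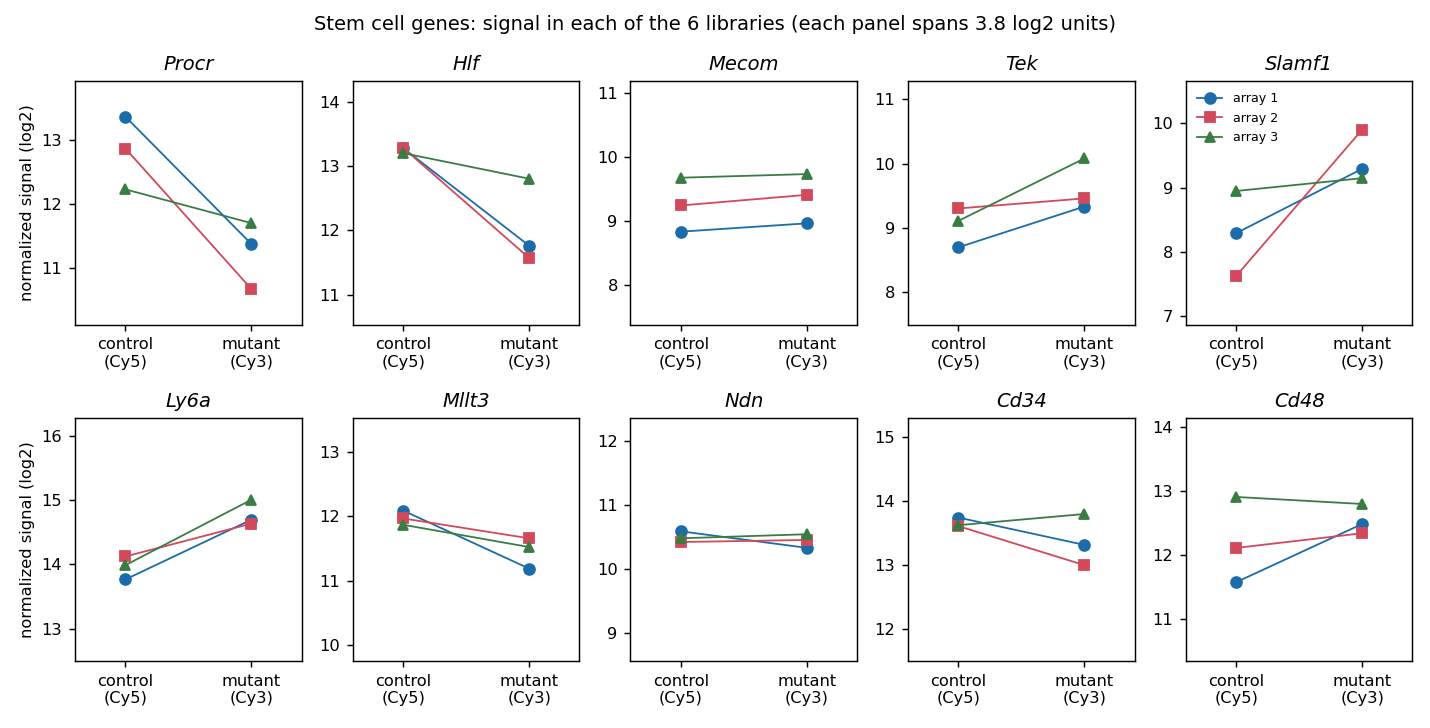
Normalized log2 signal of the brightest probe of each of the 10 genes, with control (Cy5) on the left and mutant (Cy3) on the right of each panel. Each line joins the 2 libraries of 1 array, and every panel spans the same number of log2 units. Procr, Hlf and Mllt3 slope down and Tek, Slamf1 and Ly6a slope up on all 3 arrays without overlap between the groups, while the levels of Mecom, Ndn, Cd34 and Cd48 overlap.

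Among the surface receptors, Procr had the lowest ratio of the 10. It encodes the endothelial protein C receptor, which binds activated protein C on vessel walls and is among the most selective surface markers of mouse stem cells. Its probe (A_51_P382152, chr2:155496067-155496126, plus strand, as the array files give it, in a build they do not name) read 11.38, 10.68 and 11.71 in mutant libraries 1, 2 and 3. In control libraries 1, 2 and 3 it read 13.37, 12.87 and 12.23. Every mutant level lay below every control level. The gap was narrowest on array 3, where the control level was the lowest of the controls and the mutant level the highest of the mutants. The ratios were -1.99, -2.19 and -0.53, with a mean of -1.57 ± 0.91 (SD, n = 3). This is a signal 2.96-fold higher in the controls, with a 95% interval of -2.47 to -0.66 on the log2 scale. Procr did not pass the test across all genes (limma adjusted p = 0.461). The mean was -1.36 without array 1 and -0.11 with array 2 turned, since array 2 held the largest of the ratios.

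Tek, the receptor for the angiopoietins that niche cells supply, went the other way by its mean. Its tested probe (A_51_P130374, chr4:94266776-94266835) read 9.33, 9.46 and 10.08 in mutant libraries 1, 2 and 3 and 8.70, 9.30 and 9.11 in the controls. The groups did not overlap, although mutant library 1 and control library 2 differed by only a few hundredths. The ratios were 0.64, 0.16 and 0.97, with a mean of 0.59 ± 0.41 (SD, n = 3; 95% interval -0.01 to 1.19, limma adjusted p = 0.494). The mean was 0.56 without array 1 and 0.48 with array 2 turned, which left its sign as it was. The second Tek probe (A_52_P234087), 132314 bases away in the array's coordinates, was not well above background in any of the 6 libraries and gives no ratio that can be read. Procr and Tek are both also endothelial genes. Of 14 endothelial markers, 12 were kept. A summed level adds the linear signals of a list, so the brightest genes weigh most. For the 12 markers this sum ran from 14.17 to 14.55 (log2) in the mutant libraries and from 14.66 to 14.80 in the controls. Their mean ratios lay above 0 for 5 and below 0 for 7, with a median of -0.23, or -0.10 with array 2 turned. Kdr, the main receptor for vascular endothelial growth factor, was not well above background in any library, and Cdh5 was so in 1 mutant and 2 control libraries. Egfl7, a secreted factor of endothelium and progenitors, had a mean ratio of -0.88, or 0.17 with array 2 turned, and Cldn5, a tight junction protein, had -0.81, which was -0.51 without array 1 and -0.08 with array 2 turned. The part of endothelial signal in the Procr and Tek ratios was not tested.

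The promoters of Procr and Hlf, the pair with the lowest ratios, are printed with that of Slamf1, the member with the highest. Each is the 250 bases before the gene's start in RefSeq (GRCm38.p6), read 5′ to 3′ on the gene's strand, with capitals marking motif matches on either strand. The motifs marked are GATAA, the core letters bound by GATA factors; CGGAAG, those of ETS factors; and CANNTG, the E-box of bHLH factors, which reads the same on both strands. No matches overlap in these windows.
Procr, chr2:155750967-155751216, plus strand: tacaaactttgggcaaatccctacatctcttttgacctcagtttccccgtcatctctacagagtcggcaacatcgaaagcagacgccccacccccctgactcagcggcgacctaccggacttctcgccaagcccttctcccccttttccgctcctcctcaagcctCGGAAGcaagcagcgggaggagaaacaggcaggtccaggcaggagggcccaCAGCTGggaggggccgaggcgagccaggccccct
Hlf, chr11:90390918-90391167, minus strand: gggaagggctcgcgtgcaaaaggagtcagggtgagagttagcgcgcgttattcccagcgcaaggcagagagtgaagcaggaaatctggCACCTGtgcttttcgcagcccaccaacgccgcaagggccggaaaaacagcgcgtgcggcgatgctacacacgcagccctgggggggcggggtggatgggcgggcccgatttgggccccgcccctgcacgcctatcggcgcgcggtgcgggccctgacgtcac
Slamf1, chr1:171766882-171767131, plus strand: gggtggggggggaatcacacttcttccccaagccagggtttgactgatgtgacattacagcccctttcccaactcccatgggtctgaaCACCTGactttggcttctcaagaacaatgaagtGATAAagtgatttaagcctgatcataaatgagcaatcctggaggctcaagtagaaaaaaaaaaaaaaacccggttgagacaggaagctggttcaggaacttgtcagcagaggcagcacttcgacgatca

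RefSeq promoters were matched for 9 of the 10 genes, with 11 starts, since Mecom and Mllt3 have 2 each. In these windows, Procr held CGGAAG from 85 to 80 bases before its start and CANNTG from 34 to 29. Hlf and Slamf1 each held CANNTG from 162 to 157 bases before the start, and Slamf1 also held GATAA from 129 to 125. Over the 11 windows CANNTG was found in 8 (66.2% of 32851 RefSeq promoter windows of this length hold it), GATAA in 3 (22.6%) and CGGAAG in 2 (13.6%). The MEF2 motif was in 0 of the 11 windows, beside 2.92% of all windows. The STAT motif TTCNNNGAA (7.02%) and the TATA box TATAAA (12.4%) were also in 0 of 11. A match is a description of the letters, and its absence covers only these windows.

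Slamf1 and Cd48 belong to the SLAM family of receptors on blood cells, and in the classical code stem cells are CD150 positive and CD48 negative. Both genes lie on chromosome 1. The tested Slamf1 probe (A_52_P158959, chr1:171758095-171762413) read 9.29, 9.90 and 9.15 in mutant libraries 1, 2 and 3. It read 8.29, 7.62 and 8.95 in the controls. All mutant levels lay above all control levels, with array 2 the widest apart and array 3 nearly level. The ratios were 1.003, 2.28 and 0.20, with a mean of 1.16 ± 1.05 (SD, n = 3; 95% interval 0.16 to 2.17). That is a 2.24-fold higher signal in the mutant libraries that did not pass the test across all genes (limma adjusted p = 0.468). A second Slamf1 probe (A_52_P550173), 7891 bases further on, had ratios of 0.34, 2.65 and 0.65, with a mean of 1.21 ± 1.25 (SD, n = 3). It stood well above background in 3 mutant libraries but in only 2 controls. Both Slamf1 probes thus gave the largest ratio on array 2 and means near each other. Without array 1 the means were 1.24 and 1.65. With array 2 turned they were -0.36 and -0.55, so the sign of Slamf1 rests on the direction of that array.

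The mean ratio of Cd48 had the same sign as that of Slamf1, on overlapping levels. Its tested probe (A_51_P362029, chr1:171675069-171675127) read 12.48, 12.34 and 12.79 in mutant libraries 1, 2 and 3 and 11.57, 12.11 and 12.90 in the controls. Control library 3 was the highest of the 6 and control library 1 the lowest. The ratios were 0.91, 0.23 and -0.11, with a mean of 0.34 ± 0.52 (SD, n = 3; 95% interval -0.31 to 0.998, limma adjusted p = 0.637). The other Cd48 probe (A_52_P460230), 9114 bases away, had ratios of 1.11, 0.83 and -0.84 and a mean of 0.37 ± 1.05 (SD, n = 3). On both probes array 1 was the highest and array 3 below 0. Without array 1 the tested probe had a mean of 0.06, and with array 2 turned it had 0.19, whereas the other probe had -0.19 when array 2 was turned.

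Of 11 SLAM family genes and adaptors listed, 10 were kept and none was called. At an unadjusted p under 0.05, 2 were higher in the mutant libraries (4.81% of all genes were) and none was lower (5.32%). The 2 were Slamf9 and Slamf1, which is itself a gene under study. The median ratio of the list was 0.31, beside -0.04 over all genes, but 0.05 without array 1 and 0.06 with array 2 turned. Slamf9 had a mean of 0.72 ± 0.51 (SD, n = 3) and Sh2d1b1, an adaptor of SLAM receptors, 0.50 ± 0.80, which was -0.44 with array 2 turned. Cd244a, the receptor that binds CD48, had -0.46 ± 0.53, with levels lower in the mutant libraries without overlap, but a mean of -0.16 without array 1.

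Ly6a had the ratios that varied least among the members with a p under 0.05. It encodes Sca-1, a small surface protein held by a lipid anchor, which was 1 of the sort markers and is induced by interferon. Its only probe (A_51_P265495, chr15:75075673-75075732, minus strand) read 14.70, 14.64 and 15.01 in mutant libraries 1, 2 and 3 and 13.77, 14.12 and 13.99 in the controls. The lowest mutant level lay above the highest control level. The ratios were 0.93, 0.51 and 1.02, with a mean of 0.82 ± 0.27 (SD, n = 3; 95% interval 0.28 to 1.36), a 1.77-fold higher signal in the mutant libraries. Ly6a did not pass the test across all genes (limma adjusted p = 0.463). The mean was 0.77 without array 1 and 0.48 with array 2 turned.

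Of 14 genes of the Ly6 family listed, 12 were kept, 4 had a p under 0.05 and a higher mutant signal (4.81% of all genes did), none a lower one, and none was called after adjustment. Means lay above 0 for 8 of the 12 and below 0 for 4. The 4 with a p under 0.05 were Ly6c1, Ly6i, Ly6f and Ly6a itself. In each of them the mutant levels lay above the control levels without overlap (7.21% of all genes). In 1 other gene of the list they lay below (11.8%). Ly6c1, a marker of monocytes and endothelium, read 15.08, 14.88 and 15.02 in mutant libraries 1, 2 and 3 and 13.53, 13.71 and 13.82 in the controls, a mean ratio of 1.31 ± 0.21 (SD, n = 3). Ly6i had a mean of 0.93 ± 0.47 and Ly6f of 0.84 ± 0.30. With array 2 turned the means were 0.52 for Ly6c1, 0.11 for Ly6i and 0.50 for Ly6f. Some genes of this family are close to each other in sequence, so probes of these 4 may share signal and are not counted as separate results. The median of the 12 was 0.22, and 0.17 with array 2 turned.

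Interferon response genes were read beside Ly6a because all mice received poly(I:C). All 20 listed were kept and none was called. At a p under 0.05, Ifih1 was higher (4.81% of all genes were) and Cxcl10, Mx2 and Rsad2 were lower (5.32%) in the mutant libraries. The median of the list was -0.25, or 0.20 with array 2 turned. Cxcl10 had a mean of -1.58, which was -0.62 without array 1, and Rsad2 had -0.87, which was 0.02 with array 2 turned. Ifih1, a sensor of double-stranded RNA, had a mean of 1.28 ± 0.96 (SD, n = 3), which was 0.76 without array 1 and 0.56 with array 2 turned. Mx2, an antiviral GTPase, had -0.90 ± 0.30, which was -0.13 with array 2 turned. The summed level of the list ran from 16.65 to 16.95 (log2) in the mutant libraries and from 16.91 to 17.11 in the controls. The part of interferon in the Ly6a ratio was not tested.

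Cd34, a sialomucin of progenitors and vessels, had overlapping levels. Its probe (A_51_P204740, chr1:194515494-194515553) read 13.31, 13.00 and 13.79 in mutant libraries 1, 2 and 3 and 13.74, 13.61 and 13.62 in the controls. The controls lay close together, and the mutant libraries spread on both sides of them. The ratios were -0.43, -0.61 and 0.17, with a mean of -0.29 ± 0.41 (SD, n = 3; 95% interval -0.89 to 0.31, limma adjusted p = 0.663). The mean was -0.22 without array 1 and 0.12 with array 2 turned.

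Of 25 other surface proteins and cytokine receptors of stem and progenitor cells, 24 were kept, none was called, and 3 had a p under 0.05, all lower in the mutant libraries. They were Flt3, Sdc1 and Robo4, where 5.32% of all genes had such a p and a lower signal. The median was -0.28, or 0.04 with array 2 turned. Flt3, the cytokine receptor that marks multipotent progenitors as opposed to stem cells, had ratios of -1.02, -1.26 and -1.19 and a mean of -1.15 ± 0.12 (SD, n = 3; limma adjusted p = 0.461). Its levels did not overlap, and with array 2 turned its mean was -0.32. Sdc1, a heparan sulfate proteoglycan, had -1.05 ± 0.68, and Robo4, a receptor of stem cells and endothelium, -0.69 ± 0.50. These means were 0.03 and -0.26 with array 2 turned, and Robo4 had -0.44 without array 1. Kit, the stem cell factor receptor used in the sort, had overlapping levels and a mean of -0.36 ± 0.51, which was 0.07 with array 2 turned and -0.21 without array 1.

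**Figure D2:**
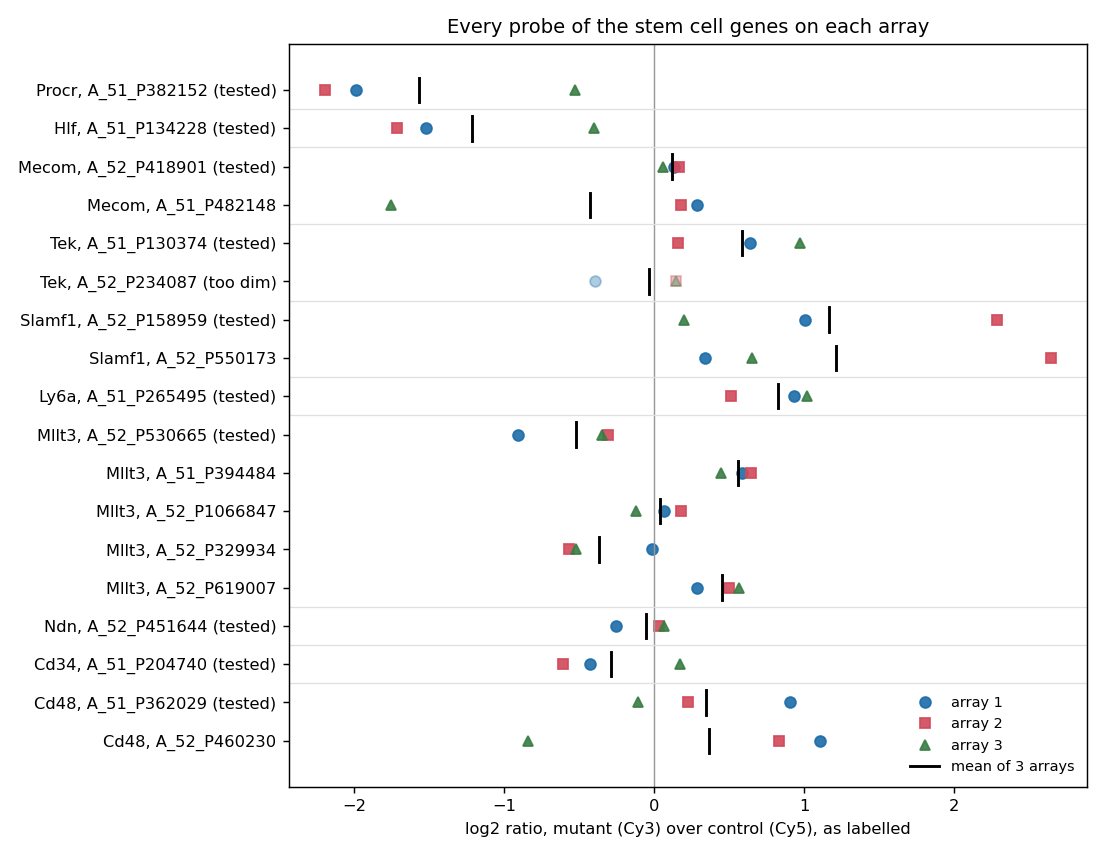
Log2 ratio of mutant over control for all 18 probes of the 10 genes, with 1 point per array and a bar at the mean of 3 arrays; the probe that stands for a gene in the test is named as tested, and the pale points are of the Tek probe that was too dim. The probes of Mllt3 fall on both sides of 0, from -0.52 to 0.56, while both Slamf1 probes reach their highest value on array 2.

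Among the nuclear factors, Hlf came closest to Procr. It encodes a PAR-type bZIP transcription factor whose expression is largely limited to stem cells within the blood system. Its probe (A_51_P134228, chr11:90447703-90447762, minus strand) read 11.76, 11.57 and 12.81 in mutant libraries 1, 2 and 3. It read 13.29, 13.29 and 13.21 in the controls. The controls lay within 0.1 of each other, and all mutant levels lay below them, with mutant library 3 the nearest. The ratios were -1.52, -1.72 and -0.40, with a mean of -1.21 ± 0.71 (SD, n = 3; 95% interval -1.98 to -0.44), a signal 2.32-fold higher in the controls. Hlf did not pass the test across all genes (limma adjusted p = 0.461). The mean was -1.06 without array 1 and -0.07 with array 2 turned. Procr and Hlf shared the order of their ratios, with array 2 lowest and array 3 nearest to 0, and over the 6 channels their levels correlated at r = 0.90, a description of 6 points that share arrays.

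Mecom encodes a zinc finger factor that stem cells require for long-term repopulation. The gene has an upstream start, once annotated as a gene of its own, Mds1, whose transcripts gain a PR domain, and a downstream start that gives the Evi1 form. Its 2 RefSeq start windows are printed because the array has probes under both names, with capitals as above.
Mecom, upstream start, chr3:30509760-30510009, minus strand: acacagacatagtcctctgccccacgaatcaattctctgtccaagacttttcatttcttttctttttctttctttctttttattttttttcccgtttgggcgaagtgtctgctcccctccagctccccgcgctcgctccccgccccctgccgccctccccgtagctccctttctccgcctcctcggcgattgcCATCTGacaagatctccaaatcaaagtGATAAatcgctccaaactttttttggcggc
Mecom, downstream start, chr3:30013205-30013454, minus strand: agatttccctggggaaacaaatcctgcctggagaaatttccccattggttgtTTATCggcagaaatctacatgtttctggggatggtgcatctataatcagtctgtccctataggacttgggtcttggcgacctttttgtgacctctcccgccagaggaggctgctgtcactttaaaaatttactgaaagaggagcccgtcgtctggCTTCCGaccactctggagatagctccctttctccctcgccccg

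The upstream window held CANNTG from 57 to 52 bases before the start and GATAA from 30 to 26. The downstream window held GATAA on the reverse strand from 198 to 194 bases before the start and CGGAAG on the reverse strand from 43 to 38. The tested Mecom probe (A_52_P418901, chr3:29754487-29754546, minus strand) read 8.96, 9.41 and 9.73 in mutant libraries 1, 2 and 3 and 8.83, 9.24 and 9.68 in the controls. Levels were lowest on array 1 and highest on array 3 in both groups, and the groups overlapped. The ratios were 0.13, 0.17 and 0.06, with a mean of 0.12 ± 0.06 (SD, n = 3; 95% interval -0.38 to 0.61, limma adjusted p = 0.829). The mean was 0.11 without array 1 and 0.0068 with array 2 turned. The second probe (A_51_P482148), 25201 bases away, had ratios of 0.29, 0.18 and -1.75, and passed the background limit in only 1 mutant and 2 control libraries. Its mean of -0.43 ± 1.15 (SD, n = 3) rests on array 3, without which it was 0.23; without array 1 it was -0.79. The probe that the files name Mds1 is no member and was singled out after its values were seen. It had ratios of 0.23, -1.29 and -0.04 and a mean of -0.37 ± 0.81, which was 0.49 with array 2 turned and -0.67 without array 1. No probe of Mecom or Mds1 thus gave levels that separated the groups. Median centring in place of loess gave the tested probe a mean of -0.14, so its sign depends on the scaling.

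Mllt3 (AF9) reads acylated histones and brings elongation factors to genes, and it supports the self-renewal of stem cells. It had 5 probes, more than any other member, and they did not give the same answer. The tested, brightest probe (A_52_P530665, chr4:87175996-87176409, minus strand) read 11.19, 11.66 and 11.52 in mutant libraries 1, 2 and 3 and 12.09, 11.97 and 11.87 in the controls. The groups did not overlap, with the mutant libraries below. Its ratios were -0.90, -0.31 and -0.35, with a mean of -0.52 ± 0.33 (SD, n = 3; 95% interval -1.09 to 0.05, limma adjusted p = 0.501).

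The neighbouring Mllt3 probes A_51_P394484 and A_52_P619007 overlap each other by 40 bases and ran the other way. The first had ratios of 0.58, 0.65 and 0.45 and a mean of 0.56 ± 0.10 (SD, n = 3), and the second 0.29, 0.50 and 0.56 and a mean of 0.45 ± 0.14. In both, the mutant levels lay above the control levels without overlap, on the same arrays where the tested probe lay below. The tested probe overlaps the first of these by 6 bases in the array's coordinates and ends 14 bases before the second. On arrays 1, 2 and 3 its ratio was lower than that of A_51_P394484 by a log2 difference of -1.49, -0.96 and -0.79. The coordinates of the tested probe span 414 bases, longer than the 60 of the others. Probe A_52_P329934, 1327 bases from the tested one, had ratios of -0.01, -0.57 and -0.52 and a mean of -0.37 ± 0.31 (SD, n = 3). Probe A_52_P1066847 was near background, in 1 mutant and 3 control libraries well above it, and had a mean of 0.04 ± 0.15. The array's annotation gives the tested probe 1 transcript record, the pair and A_52_P329934 another, and A_52_P1066847 a separate one. Whether the probes read the same transcripts was not tested. The mean over all Mllt3 probes was 0.03, so the direction of Mllt3 depends on which probe is read. With array 2 turned, the tested probe had -0.31 and the overlapping pair 0.13 and 0.12. Without array 1, the tested probe had -0.33, since array 1 held the largest of its ratios, and the pair had 0.55 and 0.53. Of the 14 genes listed as KMT2A fusion partners and elongation complex subunits, Mllt3 among them, 13 were kept. None had a p under 0.05, beside 10.1% of all genes. The median of this list was -0.10, or 0.08 with array 2 turned and -0.03 without array 1. Men1, the menin subunit, had a mean of 0.43 ± 0.54 and Ccnt1, a cyclin of the elongation kinase, 0.38 ± 0.57. Without array 1 these means were 0.14 and 0.11, and with array 2 turned they were 0.21 and 0.09.

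Of 30 other stem and progenitor transcription factors, 29 were kept, none was called, and 6 had a p under 0.05, all lower in the mutant libraries. Over all genes 5.32% had such a p and a lower signal. Ratios ran below 0 on all 3 arrays for 11 of them (20.3% of all genes) and above 0 on all 3 for 1 (15.2%). Their median was -0.29, beside -0.04 over all genes, and -0.19 with array 2 turned. Nkx2-3, a homeobox factor, had ratios of -0.998, -1.13 and -1.09 and a mean of -1.07 ± 0.07 (SD, n = 3). Erg, an ETS factor of stem cells and endothelium, had -0.93 ± 0.40, Lmo2, a bridge between DNA-binding blood factors, -0.82 ± 0.48, and Hoxa9 -0.75 ± 0.17. Mutant levels lay below control levels without overlap for 7 of the 29 (11.8% of all genes), these 4 among them, and above for 1 (7.21%). With array 2 turned the means of the 4 were -0.32, -0.60, -0.62 and -0.28.

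Ndn, the gene of necdin, a growth suppressor of the MAGE family expressed from the paternal allele, had a flat profile. Its probe (A_52_P451644, chr7:58098778-58098837) read 10.33, 10.46 and 10.55 in mutant libraries 1, 2 and 3 and 10.59, 10.43 and 10.48 in the controls. All 6 levels lay in a narrow band and the groups overlapped. The ratios were -0.26, 0.03 and 0.06, with a mean of -0.05 ± 0.18 (SD, n = 3; 95% interval -0.57 to 0.46, limma adjusted p = 0.934). The mean was 0.05 without array 1 and -0.08 with array 2 turned. Of 19 imprinted genes listed, Ndn among them, 18 were kept. Their median was -0.05, or -0.01 without array 1 and -0.02 with array 2 turned. Of the 18, 1 had a p under 0.05, beside 10.1% of all genes. That gene was Mest, expressed from the paternal allele like Ndn, with ratios of 1.11, 0.91 and 0.61 and a mean of 0.88 ± 0.25 (SD, n = 3; limma adjusted p = 0.461), which was 0.27 with array 2 turned. Meg3, a non-coding RNA of the maternal allele, had -0.40 ± 0.25, and Sgce -0.37 ± 0.04, which were both -0.13 with array 2 turned. Of 20 genes of quiescence and cell cycle exit, all were kept, and the median was -0.27. A p under 0.05 was found for 2 of them, beside 10.1% of all genes, and both were lower in the mutant libraries (5.32%). These were Junb and Txnip, named after their values were seen. Junb had a mean of -0.81, or -0.43 without array 1, and Txnip had -0.75, or -0.32 with array 2 turned. Egr1 had the lowest mean, -2.61 ± 3.21, which was -0.86 without array 1 and -1.34 with array 2 turned.

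**Figure D3:**
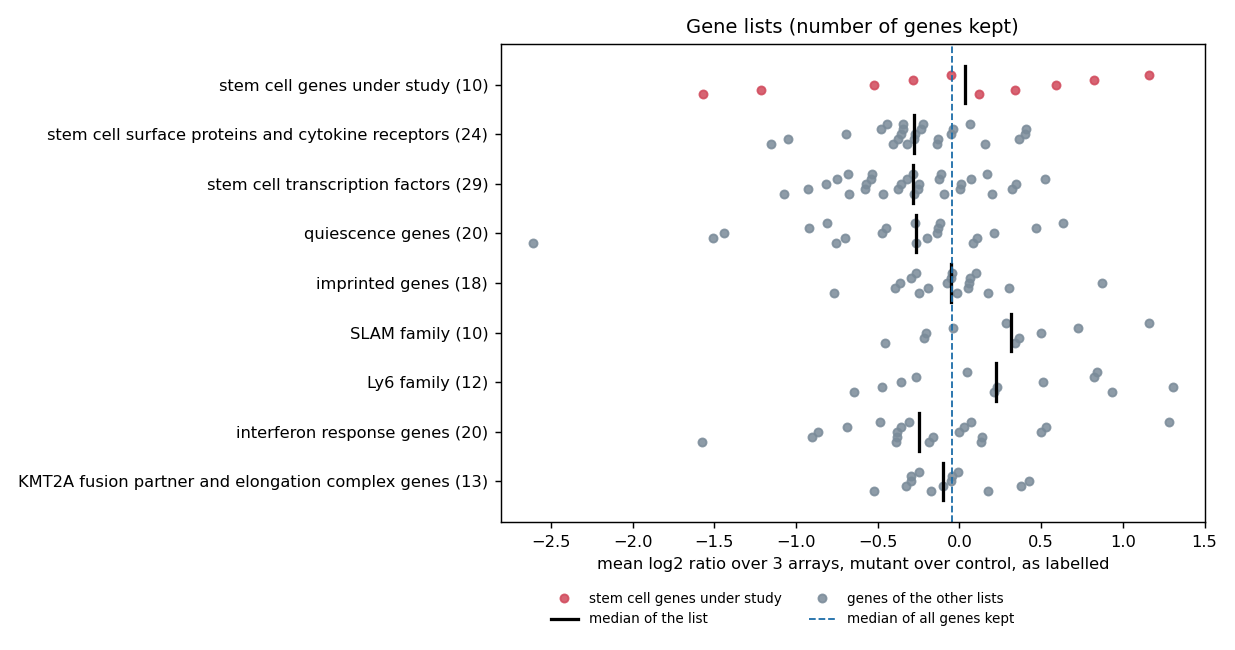
Mean log2 ratio over 3 arrays of every kept gene in 9 lists, 1 point per gene, with the median of each list as a bar and the median of all 22215 genes as a dashed line. The 10 genes under study spread from -1.57 to 1.16 around a median of 0.03, while the medians of the surface and transcription factor lists lie at -0.28 and -0.29.

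By size of the mean ratio the 10 genes were ordered, from lowest to highest, Procr, Hlf, Mllt3, Cd34, Ndn, Mecom, Cd48, Tek, Ly6a and Slamf1. No neighbours in this order differed by more than the larger of their SDs over the 3 arrays. The order was not tested. The position of the ends turned on array 2. With its sign changed, the members ran from -0.36 for Slamf1 to 0.48 for Tek and Ly6a, and Slamf1 and Cd34 changed the sign of their means.

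**Figure D4:**
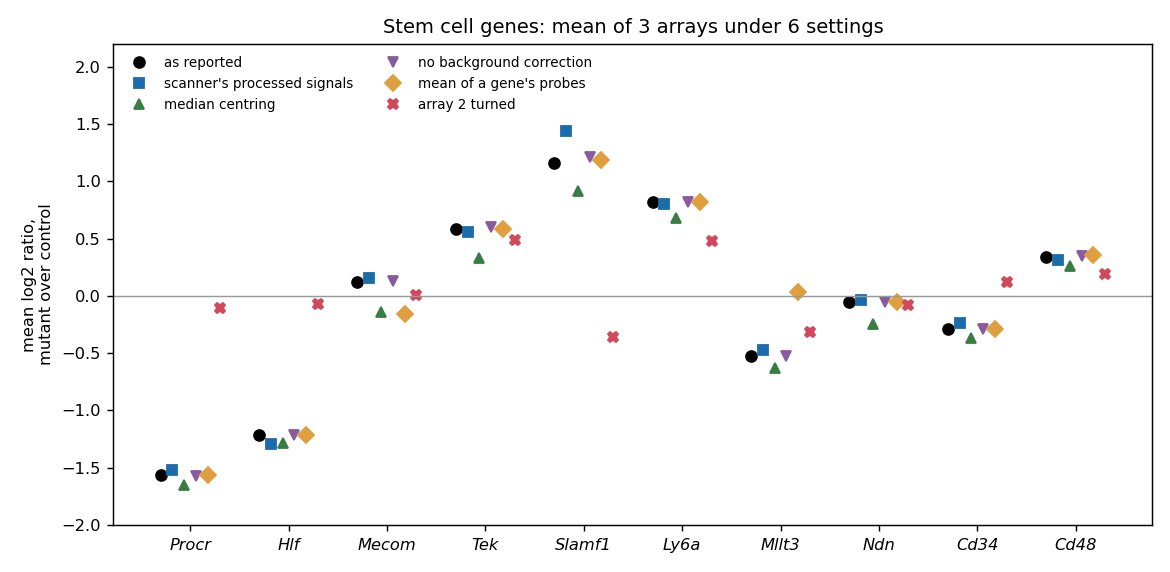
Mean log2 ratio over 3 arrays for each of the 10 genes under the reported setting and 5 alternatives. With array 2 turned, Procr moves to -0.11, Hlf to -0.07 and Slamf1 to -0.36, and with the mean of a gene's probes Mllt3 moves to 0.03; Mecom crosses 0 with median centring and with the mean of its probes.

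The authors' deposited table, turned to mutant over control by its relation to the scanner's colours, gave Procr log2 ratios of -1.99, -2.21 and -0.53 and Slamf1 1.05, 2.38 and 0.20 on arrays 1, 2 and 3. These lie within 0.1 of the values above. The signs on array 2 were set by that turning, so the likeness there covers size and not direction. For Ly6a the authors' deposited table, turned in the same way, gave 0.93, 0.51 and 1.02.

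The genes with levels most like those of Procr over the 6 channels were Rps3a1 (r = 0.996), a ribosomal protein gene, Tmsb10 (0.994), an actin-binding peptide, Terf1 (0.993), a telomere-binding protein, Lat2 (0.993), a signalling adaptor, and Pdlim2 (0.992). They were taken from 19499 genes well above background in all channels, of which 112 had an r over 0.95. Hlf ranked 494 in that order. All pairs share the same arrays and dyes, so these values describe 6 points.

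Markers of other cell types were read in the same libraries, although the lineage depletion and gate, select against mature B, T, erythroid and myeloid cells. The 11 kept neutrophil markers had a median ratio of -1.05, which was -0.42 without array 1 and -0.85 with array 2 turned, with summed levels of 14.01 to 14.32 (log2) in the mutant libraries and 14.15 to 16.70 in the controls, control library 1 the highest. Itgam, the Mac-1 antigen of the lineage cocktail, had a mean of -1.05 ± 0.23 (SD, n = 3), or -0.35 with array 2 turned. The 14 kept T and NK markers had a median of -0.47, which was -0.08 with array 2 turned and -0.27 without array 1, and summed levels of 13.17 to 13.39 against 13.75 to 14.12. For the 9 B lineage markers the sums were 13.48 to 14.24 against 13.60 to 13.86, for the 10 macrophage and dendritic markers 13.94 to 14.19 against 13.83 to 14.18, and for the 10 erythroid and megakaryocyte markers 14.31 to 14.83 against 14.87 to 15.64. The 8 mast cell and basophil markers had 14.28 to 14.69 against 14.18 to 14.68. Their medians were -0.12 for the B lineage, 0.21 for the macrophage and dendritic, -0.15 for the erythroid and megakaryocyte and 0.02 for the mast cell and basophil list. Turning array 2 gave -0.07, 0.16, -0.01 and 0.09, and leaving out array 1 gave -0.04, 0.22, -0.45 and 0.0047. Of the other genes of the sort, Ptprc had a mean ratio of -0.22 ± 0.89 and Cd3e -0.13 ± 0.32, and no probe was matched to Ly6g. Without array 1 these means were -0.51 and -0.0091, and they were -0.38 and 0.04 with array 2 turned. The mutant and control sums did not overlap for the T and NK, endothelial and erythroid and megakaryocyte lists. The brightest genes of a list weigh most in its sum, and each of these separations takes array 2 as labelled. How often the sums of other gene sets do not overlap was not tested. The part of these other cell types in the ratios of the 10 genes was not tested.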

How the data were processed

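RNA of mutant and control MPPs was hybridised on 3 2-colour Agilent arrays, 1 library of each per array. The deposited scanner files give each spot's intensity, linear, and a log10 ratio. Per the file headers they were made with Feature Extraction 9.5.1.1 from Agilent. The authors also deposited log2 ratios of every spot, for which the submitters' processing notes list limma but no settings. Set against the scanner's Cy5 over Cy3 log ratio, these columns correlated at -0.947, 0.935 and -0.939 for arrays 1, 2 and 3, with column medians of -0.015, 0.013 and -0.0025. Whether array 2 was swapped or only its column was turned is unknown.

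The deposited intensities were background-corrected by normexp in limma (offset 50) and normalized by loess within each array. Control spots had weight 0 and were then dropped. Outlier spots (300, 331 and 252) were dropped too, none of them on a probe of the 10 genes. Levels were also normalized by Aquantile. A probe was kept if the same channel passed the scanner's background limit on at least 2 arrays, with a measured ratio on at least 2, which held for 32898 of 41174. The brightest probe stood for a gene, which gave 22215 genes. Symbols came through accession (22951 probes), symbol (6659) or synonym (3109), and 8455 kept the file's name. Mean ratios were tested against 0 by lmFit and eBayes with an intercept alone (limma 3.58.1, R 4.3.3), with Benjamini-Hochberg adjustment over all genes. The scripts were tested on simulated data. Of 67 genes given a 2-fold change 0 were called, of 67 given a 4-fold change 32, and of 66 given a 16-fold change 66. There were 4 false calls. The absence of calls in the real data therefore does not exclude changes of 2-fold or 4-fold size. Only 3 arrays limit the precision, and all lie on 1 slide, so no slide effect can be estimated.

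The members and lists were chosen with earlier results of these data known. Named beside the 10 genes were Mef2c, up to 4 genes per list with the largest mean ratio in size among those well above background everywhere, the genes of the sort (1 of which is not reported here), and the 5 genes most correlated with Procr. Promoters are RefSeq's 250 bases before each start (GRCm38.p6), and Ly6a was not matched. The alternatives were other background corrections and normalizations, the deposited ratios, array 2 turned, other filters and probe rules, and leaving out each array.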

Additional observations from a re-analysis of the deposited data

How the results depend on the processing

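No gene and none of the 10 members was called in any of the 12 alternatives run, where limma's smallest adjusted p over all genes ranged from 0.291 with median centring to 0.9998 with array 2 turned. At an unadjusted p under 0.05, 1069 genes were higher and 1181 lower as reported, 551 and 2321 with median centring, 336 and 308 with array 2 turned, and 634 and 663 without array 1. Median centring moved the median ratio of all genes to -0.18, from -0.04 as reported. The median of the 10 members was -0.19 with median centring and 0.12 over all kept probes. With array 2 turned the sign changed for Slamf1 (-0.36) and its second probe (-0.55), Cd34 (0.12), Cd48 probe A_52_P460230 (-0.19), Mllt3 probes A_52_P1066847 (-0.0796) and A_52_P329934 (0.0122), Mds1 (0.49), Egfl7 (0.17), Kit (0.0671), Sdc1 (0.0252), Rsad2 (0.0188), Sh2d1b1 (-0.44) and Cd3e (0.0376). Median centring gave Mecom -0.14. The mean of a gene's probes gave Mecom -0.16, Mllt3 0.0324, Mef2c 0.13 and Ccnt1 -0.0367. The cause of these changes was not tested. Leaving out 1 array in turn changed the sign of Ndn (-0.113 to 0.0478), Mef2c (-0.436 to 0.0940), Mds1 (-0.667 to 0.0924), Ptprc (-0.51 to 0.29), Mllt3 probe A_52_P1066847 (-0.0286 to 0.122), Cd48 probe A_52_P460230 (-0.0038 to 0.97) and Mecom probe A_51_P482148 (-0.79 to 0.23). The scanner's processed signals and no background correction changed no sign. Nor did the authors' deposited log2 ratios, but each of their columns was first turned to follow the scanner's colours. That step fixed the direction of array 2 beforehand, so the deposited ratios cannot speak to it. The test itself is paired, since each ratio sets 1 mutant against 1 control library of the same array, and no further replicate block could be fitted with 1 ratio per array.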
